A study of Mus musculus with 26 samples.

Results

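RNA recovered with IMP2 from wild-type mouse brown fat was compared with total RNA of the same genotype and tissue. The members are the 3 IMP2 immunoprecipitates (libraries 21, 22 and 25) and the 4 total RNA libraries (16, 17, 15 and 20), which are 7 of the 26 samples of the series, chosen by their labels alone. The series holds 12 brown fat libraries, beside 14 liver samples that are not analysed here. Read counts per transcript come in a pair of tables with no library in common, so the same ratio was measured in separate libraries. The knockout table holds immunoprecipitates 21 and 22 and total RNA 16 and 17, beside 2 IMP2 immunoprecipitates (23 and 24) and 2 total RNA libraries (18 and 19) of Imp2 knockout mice. The IgG table holds immunoprecipitate 25 and total RNA 15 and 20, beside 1 wild-type immunoprecipitate made with IgG (26).

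All of these mice were males of 10 weeks on a C57Bl/6J background, fed normal chow and kept at 4 °C overnight. Wild types (Imp2 +/+) and knockouts (Imp2 -/-) were littermates from matings of Imp2 +/- mice. The labels name no fat depot. No label matches an immunoprecipitate to a total RNA library or says that libraries are separate animals, and p-values therefore reflect the spread of these samples, which may be technical. The library kit named in the labels does not mark the strand, so genes that overlap on opposite strands cannot be told apart.

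IMP2, the product of Igf2bp2, is an RNA-binding protein of the cytoplasm that binds mRNAs and affects their stability and translation. RNA immunoprecipitation pulls such a protein down with an antibody and sequences what comes with it, and total RNA shows what was there to be recovered. Brown fat is a tissue full of mitochondria that burns fatty acids, glucose and branched-chain amino acids to make heat through the uncoupling protein Ucp1. An mRNA above its total RNA level in the precipitate was recovered more than the average mRNA, and one below it was recovered less. Knockout and IgG precipitates measure recovery that does not need IMP2.

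The tables differ in what they list. The knockout table lists 1189 genes, all with at least 101 counts in each of its 4 wild-type libraries, and the IgG table lists 9378 genes, which include all of those 1189. The rule that chose the 1189 is not given. Abundant genes such as Lpl (48859 counts in total RNA 15) and Elovl6 (6343 counts) are not among them. Shares of all genes given for both tables are therefore shares of that chosen list. Counts summed over genes were 1110619 (21), 780333 (22) and 1321756 (25) in the immunoprecipitates and 2004064 (16), 1424024 (17), 1466519 (15) and 2701287 (20) in total RNA, each over the genes of its own table. Levels below are in CPM, counts scaled to a common library total, and are relative to the 1189 genes of both tables unless the IgG table is named. CPM values here compare libraries for 1 gene, not genes with each other. Markers of brown adipocytes were present, with 12 of 12 listed in the IgG table, where they summed to 28400 CPM in the immunoprecipitate and 22488 and 27311 CPM in total RNA. Markers of skeletal muscle were present too, and the sum over 8 of them was 1524, 7090 and 13496 CPM in immunoprecipitates 21, 22 and 25 and 2621, 10144, 26764 and 15104 CPM in total RNA 16, 17, 15 and 20. In bulk RNA, fewer cells of a type and less RNA per cell cannot be told apart. Igf2bp2 itself is listed in the IgG table alone, at 6.29 CPM of that table (8 counts, 95% exact Poisson interval 2.71 to 12.4) in immunoprecipitate 25 and at 14.1 CPM (20 counts, 8.59 to 21.7) and 6.06 CPM (16 counts, 3.47 to 9.85) in total RNA 15 and 20. These intervals cover counting error only, and since the knockout table does not list the gene, the knockout label could not be checked on it here. Neither table lists its relatives Igf2bp1 and Igf2bp3.

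With both tables in one model and a term for the table, 167 of 1189 genes were higher in the immunoprecipitate than in total RNA (14%) and 172 were lower (14.5%), at an adjusted p under 0.05 in the quasi-likelihood test of edgeR. The genes highest in the precipitate were the mitochondrial dehydrogenases Ldhd and Aldh2 and the membrane protein Mospd3, and those lowest were the ferritin chain Fth1, the muscle actin Acta1 and cytosolic ribosomal proteins. Most changes were small. The called rises had a median of log2 0.60 and the called falls of log2 -0.67, beside a median of log2 0.01 over all genes, and 9 rises and 27 falls passed log2 1. Of the genes called, 159 of the 167 higher and 167 of the 172 lower had every immunoprecipitate outside every total RNA library of its own table, a separation seen for 23.9% (above) and 23% (below) of all genes. The largest rises and falls described below were taken from calls with that separation, so the choice fixed it for them. Of all calls 49.3% were higher, against 70.6% with upper-quartile scaling and 64.6% with library size alone. Leaving out any one of total RNA 16 or 17 or immunoprecipitate 21, 22 or 25 left 90 to 111 higher and 100 to 129 lower, with the fewest without library 25.

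Ldhd, the mitochondrial D-lactate dehydrogenase (chr8:111625611-111630336 in RefSeq's annotation of GRCm38.p6, the assembly called mm10), had 399, 420 and 242 CPM in immunoprecipitates 21, 22 and 25, against 124, 113, 98.5 and 129 CPM in total RNA 16, 17, 15 and 20. Every precipitate stood above every total RNA library, and library 25 was the lowest of the precipitates. The rise was log2 1.52 ± 0.16 (SE, 3 against 4 libraries, edgeR adjusted p = 0.000214), and Ldhd overlaps Znrf1, whose reads cannot be told apart from it. Aldh2, which clears acetaldehyde and lipid aldehydes in mitochondria (chr5:121566027-121593824), had 435, 478 and 344 CPM in the precipitates, against 173, 165, 112 and 197 CPM in total RNA. The groups did not overlap, at log2 1.32 ± 0.17 (edgeR adjusted p = 0.000516). Mospd3, a membrane protein with a major sperm protein domain (chr5:137596645-137601079), had 178, 235 and 294 CPM in the precipitates, against 84.7, 110, 69.5 and 66.0 CPM in total RNA. Its rise was log2 1.49 ± 0.21 (edgeR adjusted p = 0.000713), and library 25 gave it the highest value, unlike for Ldhd and Aldh2.

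Enzymes of branched-chain amino acid breakdown followed. Bcat2, the mitochondrial aminotransferase that starts the breakdown of leucine, isoleucine and valine, had 901, 836 and 325 CPM in the precipitates, against 417, 319, 229 and 161 CPM in total RNA. Library 25 lay below total RNA 16 and above both total RNA libraries of its own table, and the rise was log2 1.06 ± 0.20 (edgeR adjusted p = 0.00311). Ivd, isovaleryl-CoA dehydrogenase of the leucine pathway, had 825, 775 and 495 CPM in the precipitates, against 410, 365, 249 and 243 CPM in total RNA, with no overlap. It rose by log2 1.03 ± 0.10 (edgeR adjusted p = 0.000214). Proteins that process or fold what mitochondria import were the next. Mipep, a peptidase that trims imported proteins, was higher by log2 1.06, and the chaperone Trap1 (overlapping Dnase1) by log2 1.01. The mitochondrial nuclease Endog rose by log2 1.06 and its overlapping neighbour D2Wsu81e by log2 0.97, and those values may share reads. Fahd2a rose by log2 1.05 and Pttg1 (securin, which restrains the separation of sister chromatids) by log2 0.97.

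**Figure D1:**
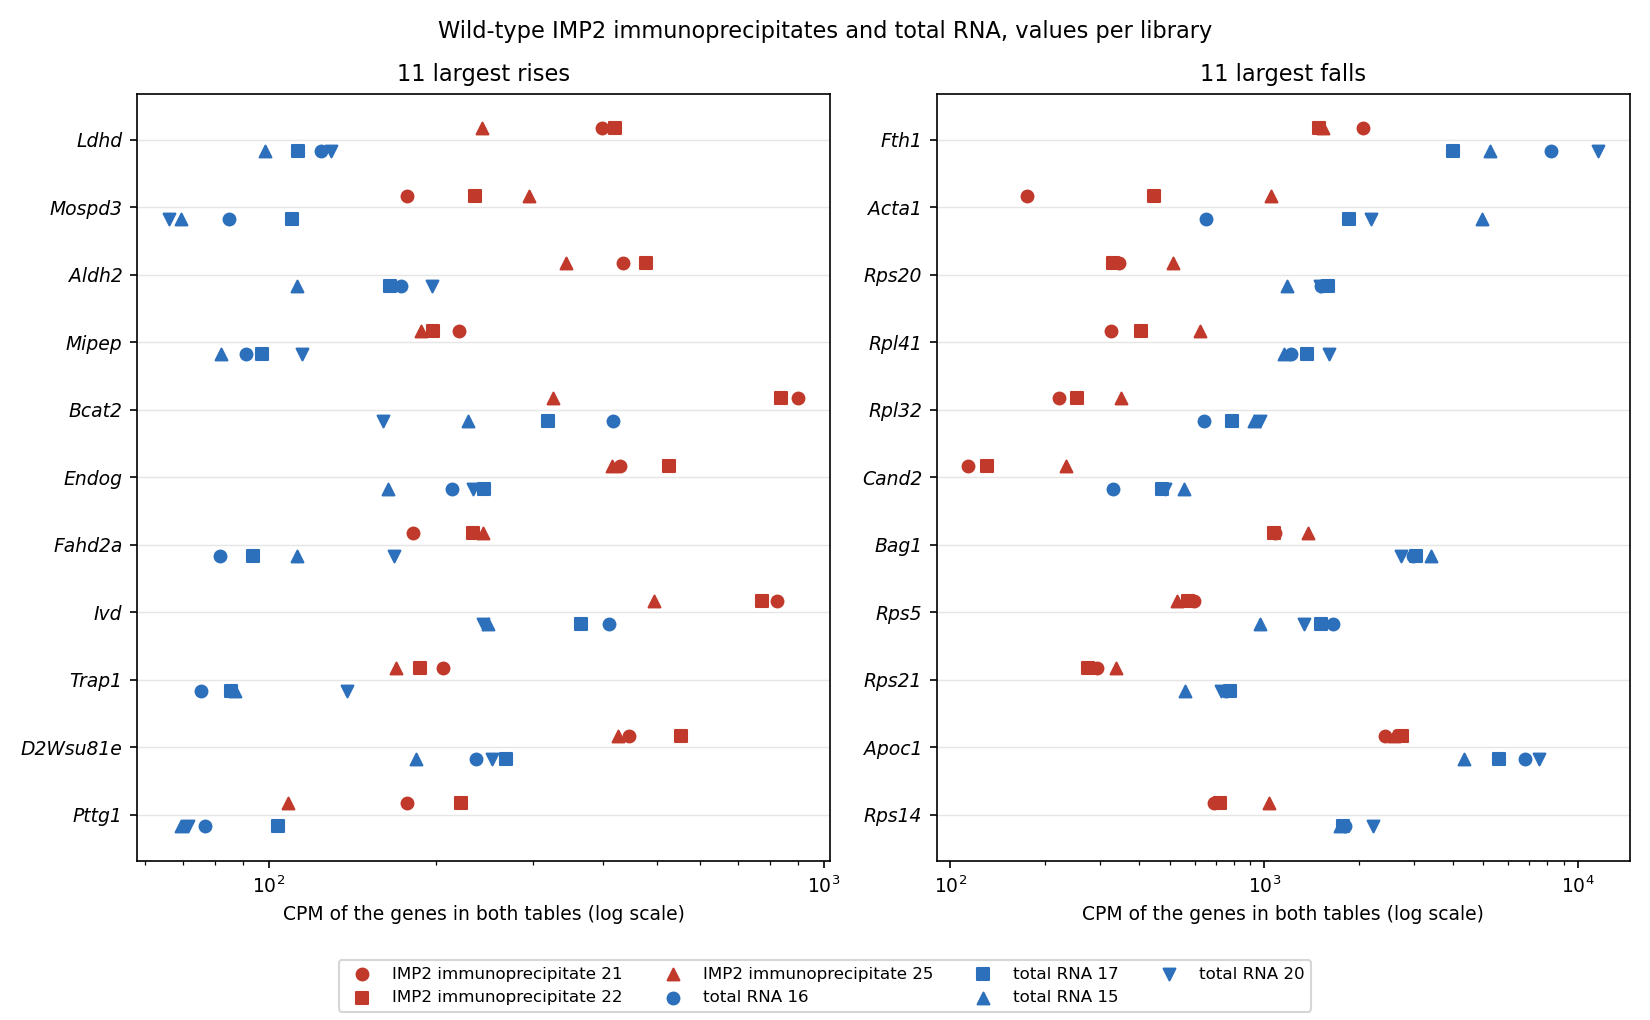
CPM on a log axis of the 11 genes with the largest rises (left) and the 11 with the largest falls (right), 1 point per library, with the 3 IMP2 immunoprecipitates in red above the 4 total RNA libraries in blue. The 22 genes were chosen among those whose points of the same table do not overlap between the groups, so that separation is not a result. Acta1 spreads widely within each group, at 175 to 1048 CPM in the precipitates and 650 to 4937 CPM in total RNA.

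The deepest fall was that of Fth1, the heavy chain of the iron store ferritin (chr19:9980600-9985111). It had 2059, 1498 and 1542 CPM in immunoprecipitates 21, 22 and 25, against 8204, 4007, 5237 and 11612 CPM in total RNA 16, 17, 15 and 20. The groups did not overlap, the total RNA values spread the wider, and the fall was log2 -2.04 ± 0.34 (edgeR adjusted p = 0.00182). The light chain Ftl1 fell by log2 -0.96 (edgeR adjusted p = 0.0027), and 2 of the 4 genes of ferritin and iron handling were not called. Apoc1, an apolipoprotein, had 2424, 2749 and 2600 CPM in the precipitates, against 6774, 5600, 4339 and 7492 CPM in total RNA, a fall of log2 -1.23 ± 0.21. Bag1, a partner of the chaperone Hsp70, had 1087, 1075 and 1380 CPM in the precipitates, against 2977, 3040, 3398 and 2735 CPM in total RNA. The Bag1 values kept close within each group and far apart between them, at log2 -1.35 ± 0.14 (edgeR adjusted p = 0.000214). Acta1, the actin of skeletal muscle, was at log2 -1.92 ± 0.61 (edgeR adjusted p = 0.0362), and this call ended without library 15, 17, 21, 22 or 25. Ckm and Tnnt3, also muscle genes, were at log2 -1.39 and -1.53 and missed the threshold, and Pvalb and Tnnc2 were at log2 0.18 and 0.15. The part of muscle content in these values was not tested.

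Cytosolic ribosomal proteins, the protein parts of the machine that makes proteins, stood lowest as a group. All 20 that both tables list fell, where 14.5% of all genes did, with a list median of log2 -1.11 beside log2 0.01. Every one of the 20 had each precipitate below each total RNA library of its table, and 17 to 20 passed the threshold over the 17 alternatives. Rps20 (chr4:3831584-3835655) had 345, 329 and 512 CPM in the immunoprecipitates, against 1516, 1592, 1185 and 1511 CPM in total RNA. Its fall was log2 -1.87 ± 0.19 (edgeR adjusted p = 0.000214). Rpl32, which shares its locus with Cand2, had 221, 254 and 350 CPM in the precipitates, against 644, 790, 926 and 970 CPM in total RNA, at log2 -1.53 ± 0.12 (edgeR adjusted p = 7.55e-05). Cand2 was at log2 -1.48, and the reads of that pair cannot be told apart. Library 25 was the highest precipitate for Rps20, Rpl41 and Rpl32, and the list median was log2 -1.25, -1.16 and -0.82 in libraries 21, 22 and 25. The smallest fall was that of Rpl8, at log2 -0.43 (edgeR adjusted p = 0.0224, call ended in 6 of 17 alternatives). Ribosomal protein genes have many near-identical processed copies in the mouse genome, Rpl26 has the same counts as Gm15772 in every library, and how reads of such copies were counted is not given in the sources used here.

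Many mRNAs of ribosomal proteins begin with a C followed by a run of C and T, a 5' terminal oligopyrimidine tract known to mark mRNAs whose translation follows growth signals. The annotated RefSeq starts of GRCm38.p6 were searched on the gene's strand for a C at the first base followed by 4 bases that are each C or T. Among ribosomal members with a start in the table, 3 of 14 held it (21.4%), beside 12 of 135 of all genes called lower (8.89%), 9 of 121 of those without the ribosomal proteins (7.44%), 1 of 135 genes called higher (0.741%), 32 of 971 genes of both tables (3.30%) and 823 of all 32851 starts (2.51%). Annotated starts can miss the true first base, and a match is a description of the sequence. All 20 ribosomal mRNAs that both tables list fell, whether or not a tract was found. The 3 ribosomal starts with the tract are shown 5' to 3' on the + strand. Each has 10 bases before the start, the tract in capitals from the first transcribed base, and the bases after it. They lie at chr9:120571507-120571536, chr7:141447641-141447670 and chr2:180257369-180257398.
Rpl14: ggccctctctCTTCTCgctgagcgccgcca
Rplp2: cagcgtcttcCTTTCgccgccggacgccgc
Rps21: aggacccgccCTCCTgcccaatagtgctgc
Rpl14, of the large subunit, had 421, 464 and 489 CPM in the precipitates, against 727, 769, 600 and 656 CPM in total RNA (log2 -0.60). Rplp2, of the stalk, was at log2 -0.95, and Rps21, of the small subunit, at log2 -1.23. The gene span had a median of 7.85 kb for the genes called lower, 12.4 kb for those called higher, 11.2 kb for all and 3.16 kb for the ribosomal proteins.

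Translation factors and their regulators gave 1 rise and 5 falls among 16 members, where 14% of all genes were called higher and 14.5% lower, with a median of log2 -0.30 and 2 to 7 falls when 1 library was left out (2 without library 16 or 25, 3 without 22). The rise was that of Eif4g1, the scaffold of the cap-binding complex, at log2 0.51, and its call ended in 7 of 17 alternatives. Eef1b2, a nucleotide exchange factor of elongation, fell by log2 -1.05 (edgeR adjusted p = 0.00131), and Eif5, which acts in start codon choice, by log2 -0.61 (call ended in 2 of 17 alternatives). Mitochondrial ribosomal proteins lay on both sides, with 4 rises, 7 falls and 33 not called among 44 and a median of log2 0.04, near the shares of all genes. Leaving out 1 library gave 2 to 8 rises (2 without 17 or 21, 8 without 15) and 3 to 8 falls (3 without 25). Mrpl4 rose by log2 0.82 and Mrps24 fell by log2 -0.99, the fall missing the threshold in 1 of 17 alternatives. Of 6 aminoacyl-tRNA synthetases listed, the mitochondrial Vars2 (log2 0.53) and Tars2 (log2 0.49) rose, where 14% of all genes did. The call of Vars2 ended in 2 of 17 alternatives and that of Tars2 in 5, both of them without library 16 and without library 22. Proteasome subunits gave 5 rises and 1 fall among 16, where 14% of all genes were called higher and 14.5% lower, and a median of log2 0.27. Psmd3, of the regulatory cap, had 441, 499 and 490 CPM in the precipitates, against 246, 260, 294 and 264 CPM in total RNA, a rise of log2 0.86 ± 0.11 (edgeR adjusted p = 0.000593). Psmc1, an ATPase at the base of the same cap, fell by log2 -0.62 (call ended in 1 of 17 alternatives).

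Enzymes of the mitochondrial matrix and proteins of import, folding and proteolysis had more rises than falls, though most were not called. Over the citric acid cycle, branched-chain, fatty acid oxidation and import lists together, 25 of 70 genes rose (35.7%, beside 14% of all genes), 3 fell (4.29%, beside 14.5%) and 42 were not called, with a median of log2 0.25. Over the 17 alternatives 17 to 34 of the 70 rose and 0 to 4 fell, with 17 to 19 rises without any one of libraries 16, 17, 21, 22 and 25. In the citric acid cycle 6 of 15 rose and 9 were not called, with a median of log2 0.31, and 2 or 3 rose without any one of libraries 16, 17, 21, 22 and 25. Ogdh, of the 2-oxoglutarate dehydrogenase complex, had 7195, 7648 and 7623 CPM in the precipitates, against 5074, 5319, 4562 and 3571 CPM in total RNA. The precipitates stood close together and above all total RNA libraries, at log2 0.67 ± 0.14 (edgeR adjusted p = 0.00473), and without library 25 the call ended. Idh3b rose by log2 0.74 but overlaps Nop56, and Fh1 (fumarase) was at log2 0.68 (edgeR adjusted p = 0.0377). Fh1 had 349 and 455 CPM in precipitates 21 and 22 and 256 CPM in 25, against 166, 210, 280 and 244 CPM in total RNA, so its rise lay in the knockout table, and its call ended in 5 of 17 alternatives.

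Among 10 genes of branched-chain breakdown 5 rose and 1 fell (median log2 0.40), and without library 25, 3 rose. Bckdha, of the complex that commits branched-chain keto acids to oxidation, had 4065, 4377 and 4746 CPM in the precipitates, against 2685, 2581, 2766 and 2913 CPM in total RNA (log2 0.70 ± 0.11, edgeR adjusted p = 0.0011). Both groups were tight and did not overlap. Fatty acid oxidation gave 4 rises and 1 fall among 16 (median log2 0.18, with 14% of all genes higher and 14.5% lower), and the rises numbered 1 without library 16, 17, 21 or 22. Acadvl, which opens the oxidation of long chains, had 3860, 4170 and 3738 CPM in the precipitates, against 1997, 2196, 2060 and 2840 CPM in total RNA, at log2 0.81 ± 0.14 (edgeR adjusted p = 0.00202). Acot13, a thioesterase, fell by log2 -0.50, a call that ended in 6 of 17 alternatives. In the list of import, chaperones, proteases and dynamics 10 of 29 rose and 1 fell (median log2 0.25), with Tomm40, the pore of the outer membrane, at log2 0.82, and its relative Tomm40l, which overlaps Apoa2, at log2 -0.45 (call ended in 4 of 17 alternatives). Of 4 lactate and aldehyde dehydrogenases Ldhd and Aldh2 rose, and Ldhb was at log2 0.06.

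Subunits of oxidative phosphorylation had more falls than rises. Of 65 listed, 4 rose (6.15%, beside 14% of all genes), 16 fell (24.6%, beside 14.5%) and 45 were not called, with a median of log2 -0.21. Over the scaling alternatives 7 to 19 fell and the median was log2 -0.21 to -0.10. These counts depended on single libraries, with 4 to 9 falls and 1 to 3 rises without any one of libraries 16, 17, 21, 22 and 25, and 13 falls and 10 rises without total RNA 20. Complex I had 2 rises and 8 falls among 33 (median log2 -0.08, and 0.03 with upper-quartile scaling or 0.01 without total RNA 20), complexes II to IV with cytochrome c 2 and 5 among 22 (median log2 -0.24), and the ATP synthase 3 falls among 10 with the other 7 not called (median log2 -0.36). Ndufs7, a core subunit of complex I that carries an iron-sulfur cluster, had 2004, 2396 and 1668 CPM in the precipitates, against 1005, 1136, 1062 and 1151 CPM in total RNA (log2 0.86 ± 0.14, edgeR adjusted p = 0.00133). Ndufv1, which binds NADH, rose by log2 0.76, and its call ended in 4 of 17 alternatives. Ndufa12, an accessory subunit, fell by log2 -0.84, so members of one complex lay on both sides. Cox6b1 of complex IV had 5642, 7691 and 5434 CPM in the precipitates, against 3419, 4373, 4012 and 4249 CPM in total RNA, and rose by log2 0.63, a call that ended in 2 of 17 alternatives. Cycs, cytochrome c, fell by log2 -0.71. Atp5e, the epsilon subunit of the ATP synthase, had 2029, 1992 and 4409 CPM in the precipitates, against 5203, 4244, 5278 and 11145 CPM in total RNA (log2 -1.10 ± 0.22, edgeR adjusted p = 0.0042), and precipitate 25 overlapped total RNA 17 of the other table. Over all mitochondrial lists together 32 of 185 rose (17.3%) and 26 fell (14.1%), with a median of log2 0.05, shares near the 14% and 14.5% of all genes.

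**Figure D2:**
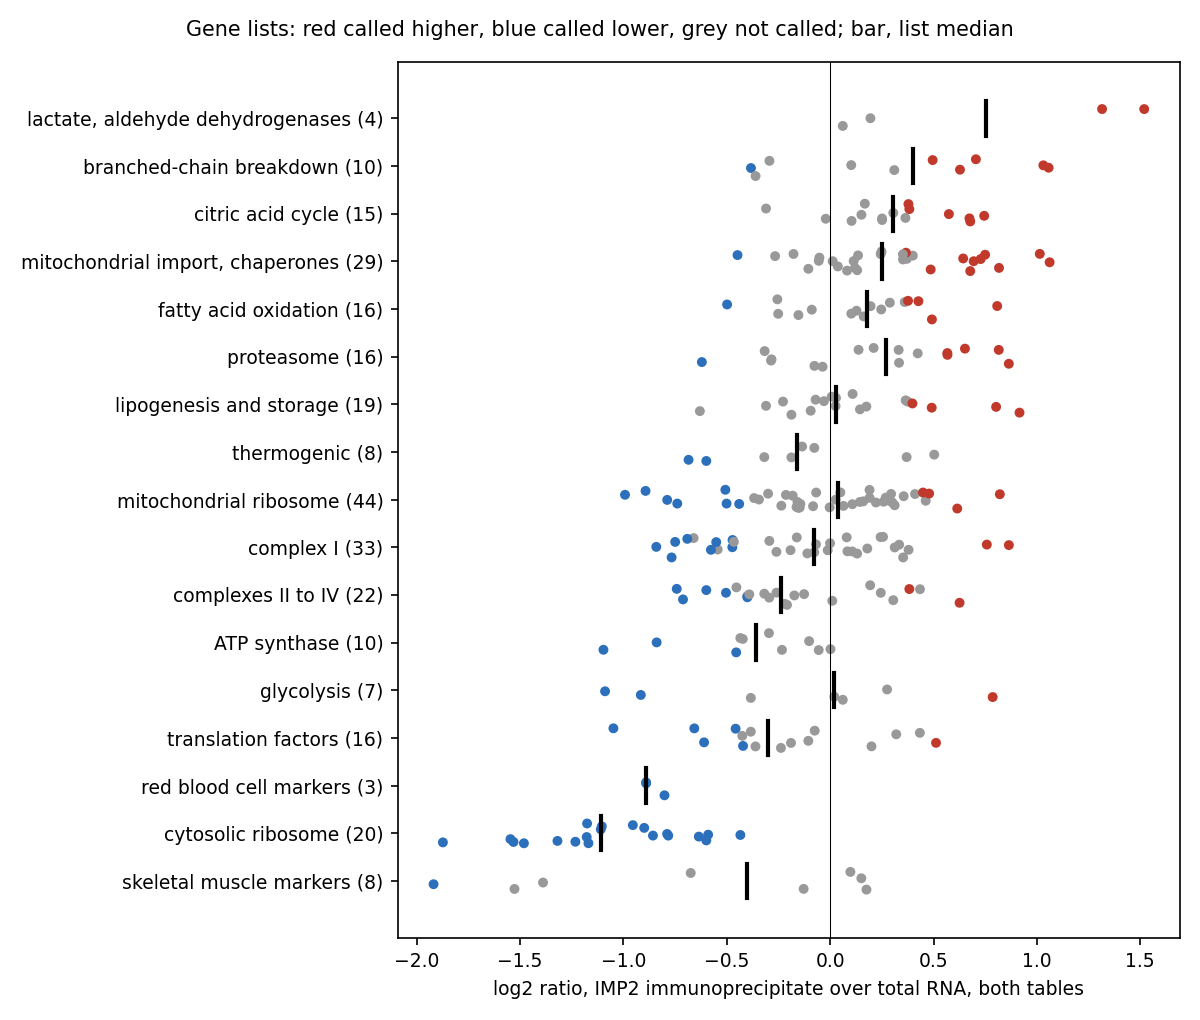
Log2 ratio of IMP2 immunoprecipitate over total RNA from the model of both tables, 1 point per gene and 1 line per gene list with its number of genes, red where called higher, blue where called lower and grey where not called, and a bar at the list median. All 20 cytosolic ribosomal proteins lie below 0 with a median of -1.11, while the branched-chain list has its median at 0.40 and the ATP synthase at -0.36.

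Genes of brown fat function were mixed. The counts of calls in the short lists that follow stand beside 14% of all genes called higher and 14.5% called lower. Ucp1, the uncoupling protein, had 6622, 10623 and 11205 CPM in immunoprecipitates 21, 22 and 25, against 5040, 5295, 10755 and 9661 CPM in total RNA 16, 17, 15 and 20. Each precipitate stood above the total RNA libraries of its own table, but the levels of the tables differed, and the ratio was log2 0.50 ± 0.22 (edgeR adjusted p = 0.0999). It passed the threshold with upper-quartile scaling (edgeR adjusted p = 0.0452) and with DESeq2. Of 8 thermogenic genes 6 were not called and 2 fell, Pank1 (a coenzyme A synthesis enzyme, log2 -0.68) and Cox8b (a muscle and brown fat isoform in complex IV, log2 -0.60, whose call ended in 5 of 17 alternatives). In lipogenesis and lipid storage 4 of 19 rose and 15 were not called, and 1 or 2 rose without library 17, 21 or 25. Fabp4, the fatty acid carrier of adipocytes, had 16693, 18415 and 14761 CPM in the precipitates, against 8017, 9149, 8804 and 8906 CPM in total RNA, with a wide gap between the groups (log2 0.92 ± 0.17, edgeR adjusted p = 0.00245). G0s2, an inhibitor of triglyceride lipase, rose by log2 0.80, with 1080, 703 and 267 CPM in the precipitates, against 487, 367, 202 and 216 CPM in total RNA. In glycolysis Pfkl rose by log2 0.79 while Tpi1 (log2 -1.09) and Aldoa (log2 -0.92) fell, among 7 listed. The red blood cell markers listed, with Hba-a1 and Hba-a2 identical in counts, fell, and summed to 2641, 2675 and 3488 CPM in the precipitates and 4889, 4148, 7868 and 5679 CPM in total RNA. Of 3 mRNAs named in the literature as targets of the IMP family, Actb fell by log2 -0.71, a call that ended in 4 of 17 alternatives, among them without library 17, 21 or 25, and Ucp1 and Ccnd3 were not called.

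The tables gave the ratio from separate libraries, and they were set against each other. In the knockout table alone 118 genes were higher (9.92%) and 148 lower (12.4%) in the precipitates. Of the 118, 117 were above 0 in the IgG table too, and precipitate 25 exceeded both of its total RNA libraries for 100 of them and lay below both for 1. Of the 148, 143 were below 0 in the IgG table, with precipitate 25 below both total RNA libraries for 133 and above both for 0. Over all 1189 genes 740 were above 0 in the IgG table. Over the wider set of 8966 genes tested in the IgG table, precipitate 25 was above both total RNA libraries for 34.2% and below both for 35.7%. The shares over the 1189 genes alone were not computed. The 118 had a median of log2 0.67 where they were called and of log2 0.71 in the libraries of the IgG table. The 148 had a median of log2 -0.73 where they were called and of log2 -0.48 in the IgG table. Ratios of the IgG table were scaled over its 8966 genes, and the 1189 had a median of log2 0.13 there, beside 0.01 in the knockout table. That offset makes rises look larger and falls smaller in the IgG table, and it adds to the numbers above 0. Across the 1189 genes the ratios of the tables had a Pearson r of 0.781 and a Spearman rho of 0.777, a description over genes of the same tissue and antibody, which are not independent replicates. The genes called in the knockout table with the other sign in the IgG table were Tmem205, at log2 0.54 and -0.20, and Atp6v1d, Cdk11b, Egfl7, St3gal3 and Tmem111, which were at log2 -0.45 to -0.72 where called and at 0.01 to 0.10 in the libraries of the IgG table. Those values of 0.01 to 0.10 lie below the median of log2 0.13 that the 1189 genes had there, so their sign depends on the scaling.

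**Figure D3:**
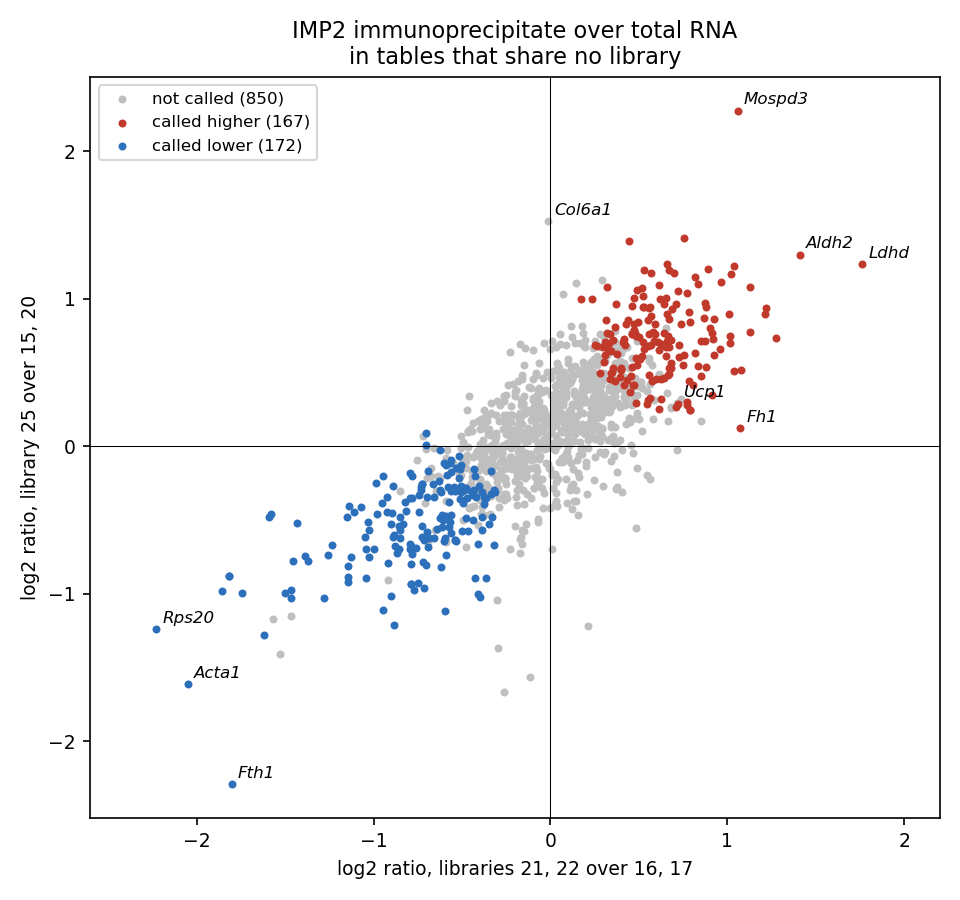
Log2 ratio of IMP2 immunoprecipitate over total RNA for 1189 genes, with libraries 21 and 22 over 16 and 17 on the x axis and library 25 over 15 and 20 on the y axis, coloured by the call of the model of both tables (167 higher in red, 172 lower in blue, 850 not called in grey). Called genes lie almost all in the same sign quadrant, largely by construction, because the calls were made on the libraries of both axes. Col6a1 stands at 1.53 on the y axis and -0.02 on the x axis. Values on the y axis were scaled over the 8966 genes of the IgG table, where the 1189 had a median of log2 0.13.

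A direct test of the difference between tables called 0 of 1189 genes (0%) with edgeR, and 39 had an unadjusted p under 0.05, with 13 larger and 26 smaller in the IgG table. No other tool was run on it, and a p that misses the threshold does not show that the tables are alike. The gene deposited under the symbol 15-Sep, Selenof in RefSeq, was at log2 0.21 in the knockout table and, with library 25, at log2 -1.22. Col6a1, a chain of collagen VI, had 138, 156 and 709 CPM in precipitates 21, 22 and 25, against 116, 177, 317 and 232 CPM in total RNA 16, 17, 15 and 20. Of the 3 precipitates, library 25 alone stood above both total RNA libraries of its table. Mospd3 was at log2 1.06 in the knockout table and, with library 25, at log2 2.27, and Fh1 at 1.07 and, with library 25, at 0.12. All of these had an adjusted p of 0.999 for the difference.

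In the IgG table alone, with 1 precipitate against 2 total RNA libraries and 1 residual degree of freedom, edgeR called 4 of 8966 genes higher (0.0446%) and 77 lower (0.859%), together 0.903%, with 232 and 477 at an unadjusted p under 0.05. The genes called higher were Mospd3, Lars2, Ano1 and Col6a1. The lone precipitate is assumed to vary like the total RNA libraries, and so small a design leaves most ratios without a call. Precipitate 25 exceeded both total RNA libraries for 3065 genes (34.2%) and lay below both for 3198 (35.7%). Of the 77 lower, 74 are not in the knockout table, and the others are Fth1, Acta1 and Pabpc4. CPM in the rest of the account of this table are relative to all its genes.

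Extracellular matrix and muscle genes were among the lowest of the genes that only the IgG table lists with a mean of at least 20 CPM. Lum, the matrix proteoglycan lumican, had 3.14 CPM (4 counts) in precipitate 25, against 42.9 and 28.4 CPM in total RNA 15 and 20, a fall of log2 -3.47 ± 0.78 (edgeR adjusted p = 0.00311). Postn, the matrix protein periostin, had 5.50 CPM in the precipitate, against 44.3 and 42.1 CPM in total RNA (log2 -2.96 ± 0.68, edgeR adjusted p = 0.00389). Dcn, decorin, had 11 CPM in the precipitate, against 70.3 and 55.7 CPM in total RNA, so precipitate 25 was far below both for all of these. Of 29 matrix genes tested 3 fell and 1 rose (0.859% and 0.0446% of all), 17 lay below both total RNA libraries and 4 above (35.7% and 34.2% of all), and the median was log2 -0.44 beside log2 -0.03 over all 8966. Col6a1 had 438 CPM in the precipitate, against 177 and 128 CPM in total RNA (log2 1.53, edgeR adjusted p = 0.0131), and Col6a2, a partner chain, 189 CPM, against 98.5 and 68.2 CPM (log2 1.19, adjusted p = 0.177). Matrix genes were thus not all low.

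Neb, the giant muscle protein nebulin, had 6.29 CPM in the precipitate, against 98.5 and 39.4 CPM in total RNA (log2 -3.42 ± 0.62, edgeR adjusted p = 0.000163). Trdn, triadin of the muscle calcium store, had 11 CPM in the precipitate, against 134 and 32.6 CPM in total RNA. For these muscle genes total RNA 15 was the higher library, as in the sum over muscle markers. The 18 muscle markers had a median of log2 -0.83 with 2 called lower (0.859% of all genes), and 11 lay below both total RNA libraries (35.7% of all). Rdx, a linker of actin to the membrane, had 4.71 CPM in the precipitate, against 42.2 and 54.6 CPM in total RNA (log2 -3.35). The others of the 12 lowest above that mean were Ifit1, Exoc5, Ppp3ca, Tmem123, Smpdl3a, Cyfip1 and Golph3, at log2 -2.69 to -3.17, which share no list. Genes called lower in this table had a median span of 30.3 kb, beside 21.3 kb over all.

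Some mRNAs of fuel handling and 1 nuclear RNA also fell in the IgG table. Lpl, lipoprotein lipase, had 7931 CPM in the precipitate, against 34372 and 25397 CPM in total RNA (log2 -1.91, edgeR adjusted p = 0.0172). Elovl6, a fatty acid elongase, had 1191 CPM in the precipitate, against 4462 and 5371 CPM in total RNA (log2 -2.05, adjusted p = 0.00389). Both were far below total RNA, while the list of lipogenesis and storage as a whole had a median of log2 0.13 with 3 of 34 lower, where 0.859% of all genes were. Dbt, the core of the branched-chain keto acid dehydrogenase, had 146 CPM in the precipitate, against 1087 and 485 CPM in total RNA (log2 -2.42, edgeR adjusted p = 0.00026), and Idh3a of the citric acid cycle was at log2 -1.54. They went against their lists, whose medians here were log2 0.30 and 0.34. Malat1, a noncoding RNA kept in the nucleus, had 181 CPM in the precipitate, against 1124 and 362 CPM in total RNA (log2 -2.04, adjusted p = 0.00256), and Neat1, another, was at log2 -0.24 and was not called. Cytosolic ribosomal proteins lay below both total RNA libraries for 49 of 59 and above both for 2 (35.7% and 34.2% of all genes), with a median of log2 -0.64, and Rplp0 was called at log2 -1.96. Starts with the pyrimidine tract described above were found for 10 of 43 of them (23.3%), beside 226 of 7200 genes (3.14%). Among the genes called lower in this table that have a start, 1 of 58 held it (1.72%).

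Lars2, the mitochondrial leucyl-tRNA synthetase, had the most counts of the genes that rose, with 111350 CPM in precipitate 25, against 34023 and 28838 CPM in total RNA 15 and 20. Its rise was log2 1.82 ± 0.44 (edgeR adjusted p = 0.00765), and it missed the threshold with no filter on low counts (adjusted p = 0.109). The mouse Lars2 gene is known to hold sequence nearly identical to mitochondrial ribosomal RNA, so its counts are uncertain. Ano1, a calcium-gated chloride channel, had 48.7 CPM in the precipitate, against 16.9 and 9.85 CPM in total RNA (log2 1.91, edgeR adjusted p = 0.0258, and 0.59 by DESeq2). Cebpb, a transcription factor of fat cell formation, had 359 CPM in the precipitate, against 154 and 129 CPM in total RNA (log2 1.35, adjusted p = 0.0517). Eno1b and Rps4y2 have near-identical relatives elsewhere in the genome and are uncertain, at log2 1.66 and 1.39. Plekhh3, Mto1, Shb, Ankrd46, Taf1, Gart and Acot2 were at log2 1.31 to 1.64 and missed the threshold. H19, a noncoding RNA from the locus of Igf2 and a known ligand of the IMP family, had 413 CPM in the precipitate, against 267 and 220 CPM in total RNA, above both but not called (log2 0.76). It was the highest of 9 literature targets of the family tested in this table, of which 5 were above 0 and 4 below. Their median was log2 0.17, and the lowest was Ccng1 at log2 -0.84. The 36 aminoacyl-tRNA synthetases had a median of log2 0.40, with 21 above and 4 below both total RNA libraries (34.2% and 35.7% of all genes) and only Lars2 called.

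**Figure D4:**
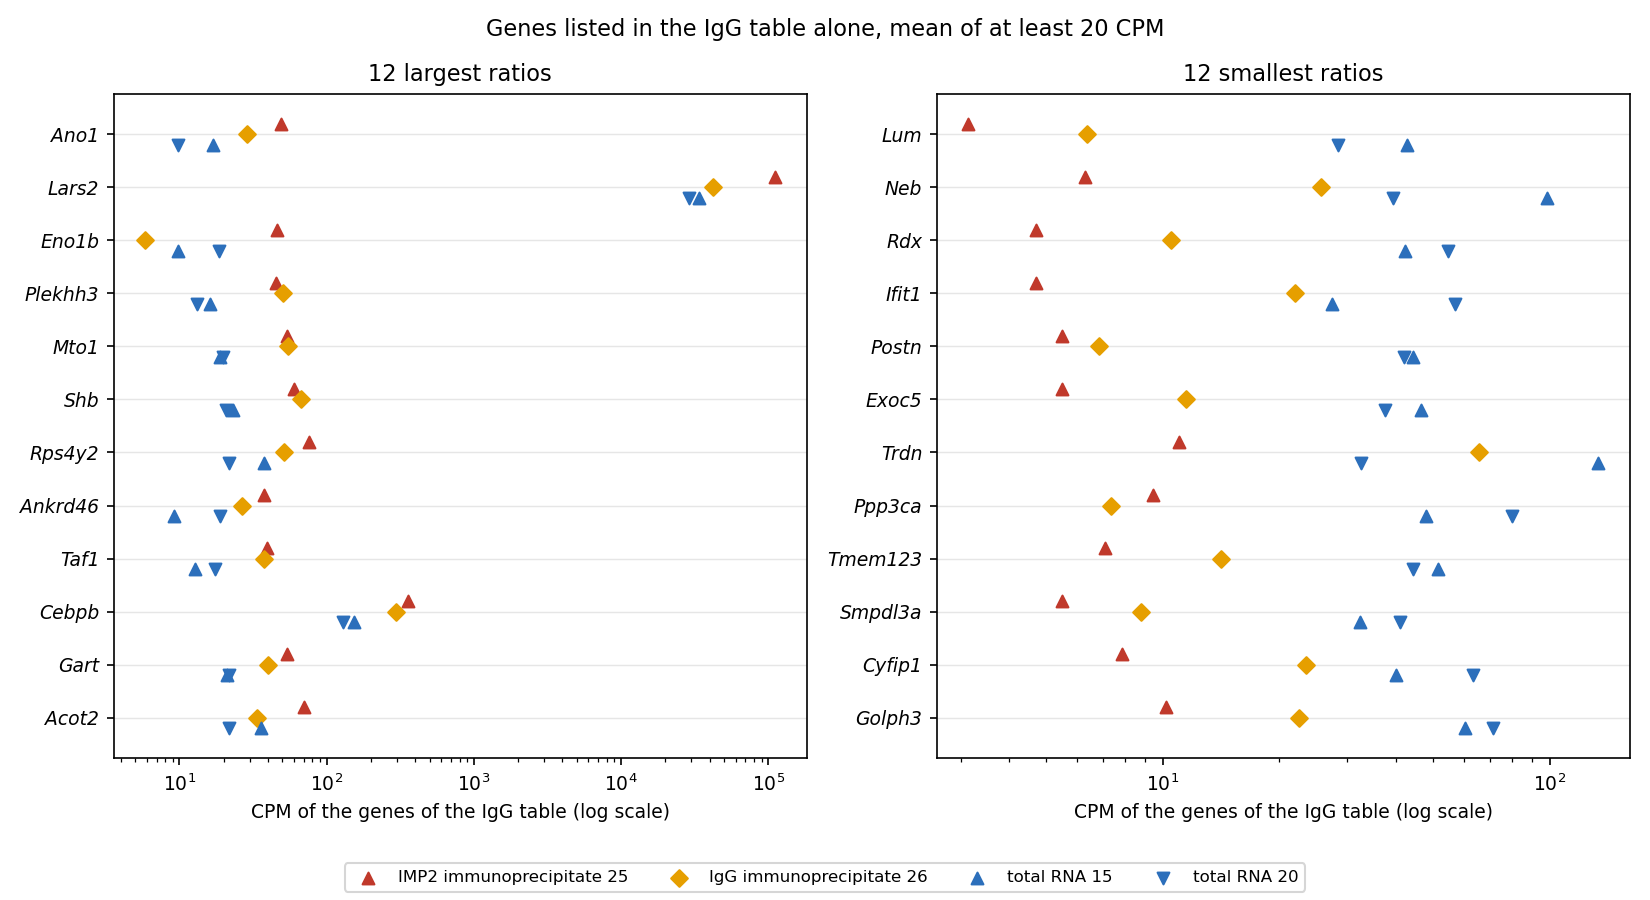
CPM on a log axis of genes that only the IgG table lists with a mean of at least 20 CPM, the 12 largest (left) and 12 smallest (right) ratios of IMP2 immunoprecipitate 25 (red) to total RNA 15 and 20 (blue), with IgG immunoprecipitate 26 in orange. Lum is at 3.14 CPM in the IMP2 precipitate, 6.35 CPM in the IgG precipitate and 42.9 and 28.4 CPM in total RNA, and Plekhh3, Mto1 and Shb have similar values in both precipitates.

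Recovery in the background precipitates was set beside these values. The ratio in knockout mice (23 and 24 over 18 and 19), which shares no library with the wild-type ratio, called 126 genes higher (10.6%) and 187 lower (15.7%). Of the 167 genes called higher in the wild type, 166 were above 0 in the knockout and 93 were called higher there, with a median of log2 0.55. Of the 172 called lower, 172 were below 0 and 127 were called lower, with a median of log2 -0.74. Ldhd had 448 and 389 CPM in the knockout precipitates, against 124 and 121 CPM in knockout total RNA (log2 1.71), and Rps20 had 366 and 273 CPM, against 1562 and 1328 CPM (log2 -2.23). The list medians in the knockout were log2 -1.29 for cytosolic ribosomal proteins, 0.49 for the citric acid cycle, 0.49 for branched-chain breakdown and -0.38 for oxidative phosphorylation, and that of the proteasome was -0.11. The difference between the wild-type and knockout ratios, tested in the knockout table, was called for 0 of 1189 genes (0%) with edgeR. An unadjusted p under 0.05 was found for 29 of the 1189, all higher in the wild type. That total is fewer than chance alone gives at that threshold, but chance would be expected to give some in each direction. The lowest count listed was 34 in knockout precipitate 23 and 101 or more in the other libraries of that table. Whether the choice of listed genes bears on the direction was not tested. A p that misses the threshold does not show that the genotypes are alike. Endog was at log2 1.06 in the wild type, from the model of both tables, and at 0.47 (edgeR adjusted p = 0.0797) in the knockout. D2Wsu81e, which overlaps Endog and may share its reads, was at 0.97 and 0.41. Neither gene was called for the difference between genotypes.

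The IgG ratio shares total RNA 15 and 20 with the wild-type ratio, so its values are only set side by side. IgG immunoprecipitate 26 over total RNA called 43 genes higher (0.48%) and 136 lower (1.52%). Aldh2 was at log2 1.64 with IgG and Ldhd at 1.28, Rps20 at -1.70 and Fth1 at -2.53. Mospd3 was at log2 -1.03 with IgG, where it was above total RNA with the IMP2 antibody in both genotypes. Bag1 was at log2 -0.36 with IgG. Col6a1 had 438 CPM in the IMP2 precipitate and 78.6 CPM in the IgG precipitate, and H19 had 413 CPM in the IMP2 precipitate and 230 CPM in the IgG precipitate. Lpl had 7931 CPM in the IMP2 precipitate and 58295 CPM in the IgG precipitate, and Malat1 181 CPM in the IMP2 precipitate and 658 CPM in the IgG precipitate. Col6a1 and H19 thus stood higher with the IMP2 antibody than with IgG, and Lpl and Malat1 lower, with 1 library each and no test. Lum, Postn and Dcn were low in the IgG precipitate as well, at 6.35, 6.84 and 13.2 CPM. The list medians with IgG were log2 -0.90 for 59 cytosolic ribosomal proteins, -0.83 for the matrix and -0.57 for 82 subunits of oxidative phosphorylation, which had a median of -0.10 with the IMP2 antibody in that table.

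**Figure D5:**
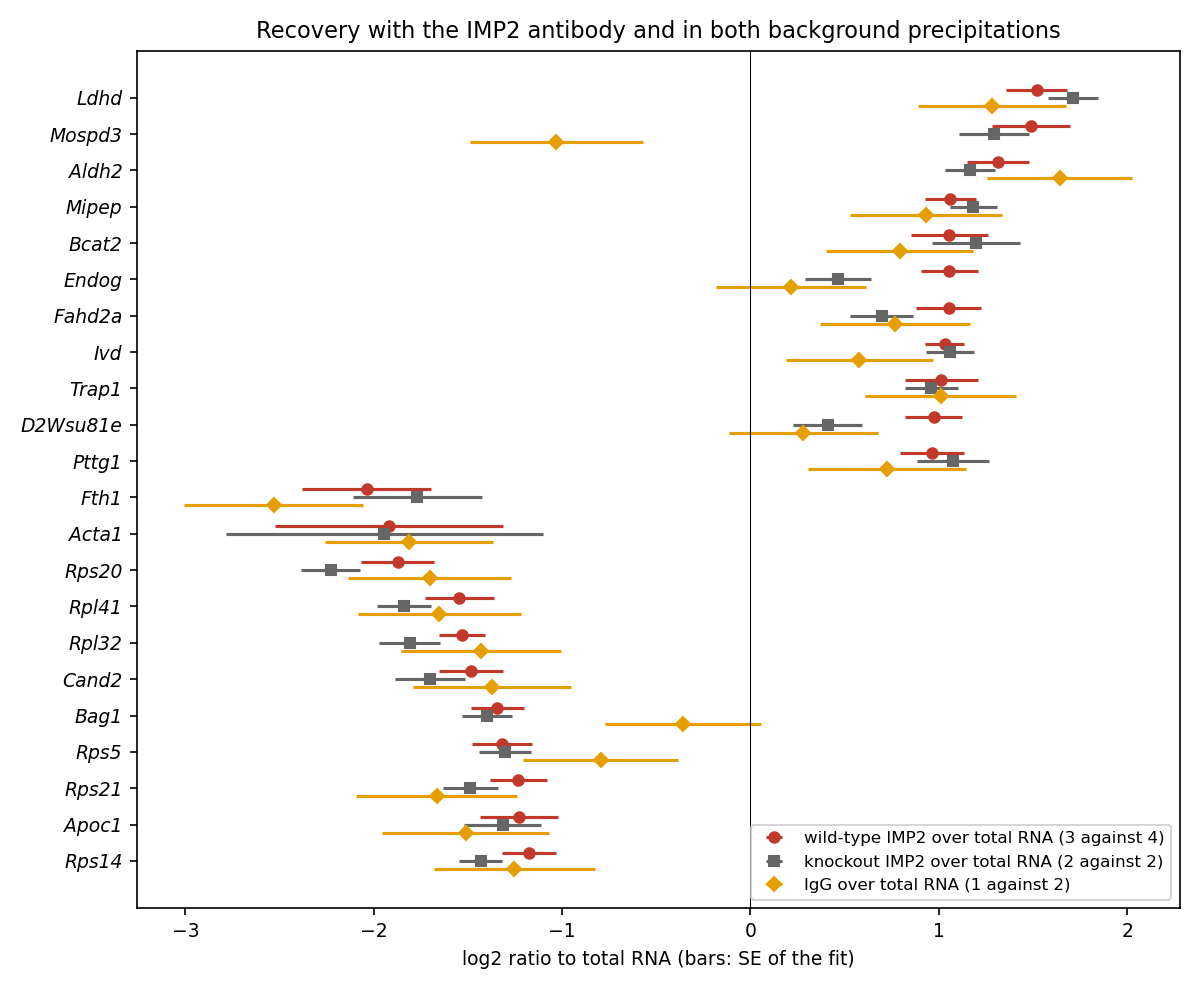
Log2 ratio to total RNA with SE for the 11 largest rises and 11 largest falls, for the wild-type IMP2 precipitate (red, 3 against 4 libraries), the knockout IMP2 precipitate (grey, 2 against 2) and the IgG precipitate (orange, 1 against 2, sharing total RNA 15 and 20 with the red values). All 22 genes have the same sign in both genotypes, and Mospd3 is at -1.03 with IgG and 1.49 with the wild-type IMP2 precipitate.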

How the data were processed

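The authors deposited whole-number read counts per RefSeq transcript in a pair of tables, with no scaling. The submitters' processing notes name mm10, Cufflinks 2.1.1 and TopHat2 2.0.8. How reads were counted, with which annotation, and which transcripts were listed is not given in the sources used here. Per the labels' protocols, Trizol and column purification yielded the RNA. Of 1579 and 12840 transcripts, 3 and 22 could not be named and stayed out, with 7.39 to 29.2% of the counts listed per library. RefSeq accessions (GRCm38.p6) named 114 and 813 without a symbol. Of several transcripts per symbol, that with the most counts over libraries stood for the gene.

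After TMM scaling, edgeR 4.0.16 (R 4.3.3) tested counts by quasi-likelihood, with p-values adjusted by Benjamini-Hochberg over all genes of a fit at 0.05. The model of both tables held all 12 libraries, the groups and the table (6 residual degrees of freedom, biological coefficient of variation 16.3%); that of the knockout table had 4 (15.3%) and in the IgG table there was 1 (25.1%), after the edgeR filter left 8966 of 9378 genes. The fits were checked on simulated data. Log2 counts of replicate libraries correlated at 0.943 to 0.979 (Pearson), and all replicate pairs differed by more than counting error (chi-square over its degrees of freedom, 14.2 to 32.2).

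Members, lists and the naming rule were chosen with earlier results of these data known. The rule names Igf2bp1 to Igf2bp3 and Ucp1 where listed, the 12 largest rises and falls called with non-overlapping groups per table, 12 of each sign listed in the IgG table alone with a mean of at least 20 CPM, the 5 smallest p-values of the difference between tables, and up to 3 extremes of each list. Not all genes that the rule names are reported here. Other genes named were chosen after their values were seen. Alternatives were other scalings, filters, summed transcripts, DESeq2 1.42.0, limma-voom (limma 3.58.1), compared groups alone, changes of at least 2-fold, each library left out and, added later, a fit without marker genes. A planned description of protein length was not run.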

Additional observations from a re-analysis of the deposited data

Results flagged for a closer look

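Among 29 named genes checked over the 4 total RNA libraries, Rps14 stood out, with 2222 CPM in library 20 and 1739 to 1807 CPM in the others. That gap is 0.859 of the range of the 4 libraries, past Dixon's 95% limit. Chance alone gives about 1 such gene in 20 groups. The immunoprecipitates had 694, 721 and 1037 CPM of Rps14.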

How the results depend on the processing

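No named gene that was called changed direction in the alternatives run, and the other called genes were not followed there. Medians of some gene lists changed sign, for glycolysis (log2 -0.07 to 0.13), for muscle markers (-1.08 to 0.34, above 0 without total RNA 17), for mitochondrial carriers, mitochondrial ribosomal proteins and complex I, and so did uncalled genes such as Pvalb (-0.59 to 0.78). With both tables, upper-quartile scaling gave 279 genes higher, the 2-fold minimum left 9 higher and 27 lower, and leaving out 1 library gave 90 to 204 higher and 100 to 210 lower. In the knockout table upper-quartile scaling gave 214 higher and 94 lower (69.5% of calls higher, against 44.4%, and 56.9% by library size), DESeq2 gave 192 higher, the 2-fold minimum 16 and 33, and leaving out 1 library 32 to 79 higher and 61 to 92 lower. In the IgG table DESeq2 gave 2 higher and 20 lower. The median over all genes moved by log2 0.11 under upper-quartile scaling with both tables and 0.14 in the knockout table, and library size moved that of the difference between tables by 0.10. Without marker genes of muscle, red blood cells and leukocytes, an alternative chosen after seeing the data, 161 were higher and 181 lower. Of 80 named genes called, 49 were called in all 17 alternatives and 31 missed the threshold in at least 1. Why counts moved was not tested. No paired analysis was possible because the labels give the groups no shared replicate numbers. Depth limits genes with few counts in the IgG table, where 1 precipitate has no replicate.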
